A study of Rattus norvegicus with 16 samples.

Results

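Sgk1, Nfkbia, Cdkn1a and Per1 are genes known as inducible by glucocorticoids, and their levels were followed in RNA of the nucleus basalis of Meynert of stressed and control rats. They were taken by Ensembl identifier as 4 of the 32883 genes counted, and all 4 lay on the chromosome given for them and passed the filter on low counts. They were listed as a glucocorticoid-inducible set with stress results of these libraries known, so they count as chosen by the stress against control differences of these same libraries, and every such value below is a description and not a test. The nucleus basalis lies in the basal forebrain and supplies the cortex with acetylcholine. Each group held 4 libraries: stressed females (FS), control females (FC), stressed males (MS) and control males (MC). All rats were Long Evans of the ChAT::Cre line, in which Cre recombinase is driven in cells that express choline acetyltransferase, and were at least 70 days old. The stress is named in the series text only as VS. Controls carry the same Cre line, and the tissue holds all its cell types, not the cholinergic neurons alone.

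Glucocorticoids, in rats mainly corticosterone from the adrenal cortex, bind the glucocorticoid receptor, which then enters the nucleus and binds response elements in DNA. Sgk1 encodes a serum- and glucocorticoid-regulated kinase that acts on ion channels and transporters, in part through the ubiquitin ligase Nedd4l. Nfkbia encodes the inhibitor that holds NF-kB transcription factors in the cytoplasm. Cdkn1a encodes an inhibitor of cyclin-dependent kinases and is also a target of p53. Per1 encodes a repressor in the circadian clock. All 4 genes also respond to other signals, such as neuronal activity, cytokines or DNA damage.

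Libraries held 22.7 to 73.8 M (mega) gene counts, of which mitochondrial genes took 64.2% to 82.5%, leaving 5.86 to 22.6 M nuclear counts. Libraries 10FC, 11MS and 20MC stand apart because they were counted with featureCounts, each mate on its own, and the other 13 have the layout of HTSeq. Levels are counts per M counts (CPM) after TMM normalisation, which scales libraries by the bulk of their genes, with mitochondrial counts included. Libraries are named by their titles. Among the FS libraries the title number differs from the number given with the counts, so the number of a single FS library is uncertain, which touches no group value. The files pair no identifiers with names, so tissue markers, other cell types and further genes of the pathway were not examined. In bulk RNA, fewer cells of a type and less RNA per cell cannot be told apart.

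Sgk1 was the most abundant of the 4 genes and was higher under stress in both sexes, 1.93-fold in females and 2.12-fold in males by the ratio of group means. ENSRNOG00000011815 lies on the minus strand of chromosome 1, from 24185435 to 24302298 (Rnor_6.0), with 17 separate exon blocks and 3657 exonic bases. Of the 3 starts that RefSeq lists for it, the window of the most downstream one is shown, from 250 bases before to 50 after the start. It lies on the minus strand at chr1:24804782-24805081 of GRCr8, and its TATA box, in capitals, is the only searched motif it holds. The other 2 windows also held 1 match each, a TATA box in one and an AP-1 motif (TGANTCA) in the other.
Sgk1: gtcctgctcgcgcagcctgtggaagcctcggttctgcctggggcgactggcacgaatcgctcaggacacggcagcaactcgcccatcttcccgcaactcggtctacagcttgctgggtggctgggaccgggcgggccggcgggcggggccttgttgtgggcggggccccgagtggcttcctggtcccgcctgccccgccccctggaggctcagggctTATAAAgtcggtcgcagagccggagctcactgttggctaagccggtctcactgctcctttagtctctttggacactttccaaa

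In stressed females Sgk1 had 126, 214, 249.9 and 230.3 CPM in libraries 1FS to 4FS, against 99.1, 111, 79.6 and 134 CPM in control libraries 6FC, 7FC, 8FC and 10FC. Libraries 2FS, 3FS and 4FS lay above all 4 FC libraries, and 1FS lay below 10FC. In males it had 177, 162, 127 and 147 CPM in 11MS to 14MS, against 67.2, 72.1, 78.0 and 71.9 CPM in 16MC, 17MC, 18MC and 20MC. The male groups did not overlap. Means were 205 ± 54.7 CPM in FS and 106 ± 22.8 CPM in FC, and 153 ± 21.5 CPM in MS and 72.3 ± 4.43 CPM in MC (SD, n = 4 each). The fitted log2 fold change, stress over control, was 0.95 (SE 0.17) in females and 1.09 (SE 0.17) in males, and 1.70% and 0.878% of all genes tested had a higher one. The control males spread little, with a coefficient of variation of 6.12%, against 26.7% in FS, where 1FS is low. Library 1FS also had 31.2% of its entries outside genes, against 15.0% to 17.3% in the other FS libraries, and the part of this in its Sgk1 level was not tested.

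**Figure D1:**
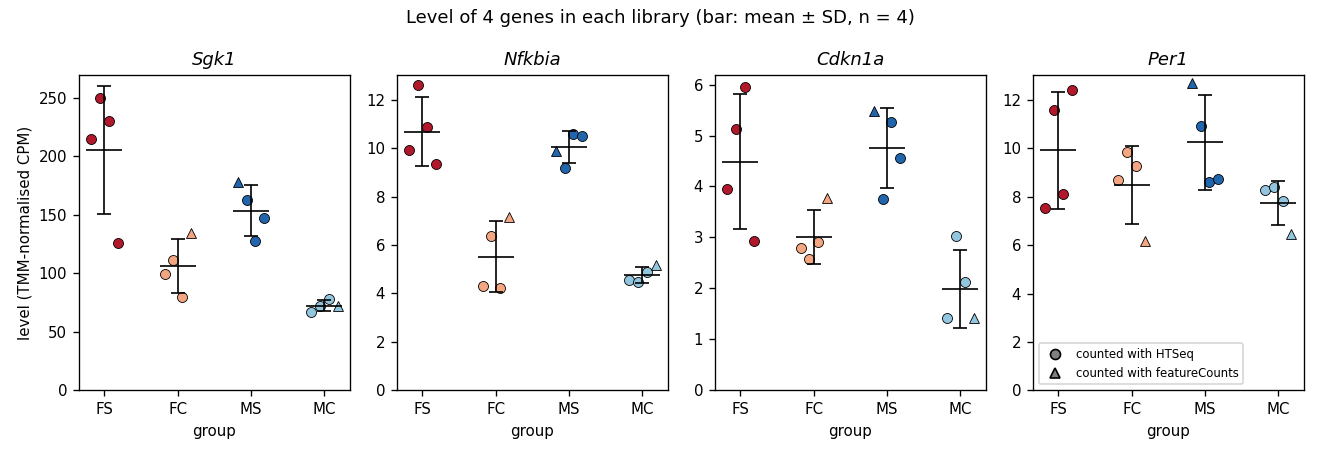
Level of each gene in TMM-normalised CPM (y axis, linear from 0) by group (x axis), 1 point per library, with the mean and SD (n = 4) as bars and triangles for the 3 libraries counted with featureCounts. Nfkbia separates stressed from control libraries in both sexes, Sgk1 and Cdkn1a overlap in females only through 1FS and 10FC, and Per1 groups lie close together.

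Nfkbia was the only one of the 4 genes whose stressed and control libraries were separate in both sexes. Its group means were 1.94-fold higher under stress in females and 2.10-fold higher in males. The female overlap of Sgk1 and of Cdkn1a was of 1FS with 10FC alone, and 10FC was counted with featureCounts. Nfkbia, ENSRNOG00000007390, lies on the minus strand of chromosome 6, from 76267228 to 76270457 (Rnor_6.0), with 6 exon blocks and 1565 exonic bases. Its window, on the minus strand at chr6:78597023-78597322 of GRCr8, is shown because it held an NF-kB motif (GGAAATTCCC) at position -31, counted from the start. The capitals mark that motif and TTTATA, the TATA box letters on the other strand, at position 18.
Nfkbia: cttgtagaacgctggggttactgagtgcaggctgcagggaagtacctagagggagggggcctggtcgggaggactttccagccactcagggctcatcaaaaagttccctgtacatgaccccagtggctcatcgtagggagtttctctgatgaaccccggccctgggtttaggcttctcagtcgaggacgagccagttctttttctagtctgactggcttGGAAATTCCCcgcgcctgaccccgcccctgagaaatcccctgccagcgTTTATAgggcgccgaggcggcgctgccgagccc

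Stressed females had 9.36, 9.91, 12.6 and 10.9 CPM of Nfkbia in 1FS to 4FS, against 4.32, 6.36, 4.24 and 7.15 CPM in 6FC, 7FC, 8FC and 10FC. Stressed males had 9.87, 9.20, 10.6 and 10.5 CPM in 11MS to 14MS, against 4.54, 4.48, 4.89 and 5.19 CPM in 16MC, 17MC, 18MC and 20MC. Every stressed library lay above every control library of its sex, and above every control library of the other sex. The share of all genes separate across both sexes in this way was not counted. Group means were 10.7 ± 1.42 CPM in FS and 5.52 ± 1.46 CPM in FC, and 10.0 ± 0.649 CPM in MS and 4.77 ± 0.330 CPM in MC (SD, n = 4 each). The log2 fold change was 0.94 (SE 0.16) in females and 1.07 (SE 0.16) in males, with 1.74% and 0.934% of genes tested above it. The 2 highest FC libraries were 10FC, counted with featureCounts, and 7FC, in which 40.8% of entries were reads not aligned, against 13.8% and 14.6% in 6FC and 8FC. Library 14MS was like 7FC in this, with 38.8% of entries not aligned, and had 10.5 CPM of Nfkbia. With the counting program as a covariate the log2 fold change of Nfkbia was 1.02 (SE 0.16) in females and 1.07 (SE 0.15) in males. Without the 3 featureCounts libraries it was 1.11 (SE 0.16) and 1.12 (SE 0.17). The part of the counting program or of the share not aligned in the level of a single library was not tested.

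Cdkn1a was scarce, with 47 to 334 counts per library, and its group means were 1.49-fold higher under stress in females and 2.39-fold higher in males. ENSRNOG00000000521 lies on the plus strand of chromosome 20, from 6351458 to 6358864 (Rnor_6.0), with 3 exon blocks and 1950 exonic bases. Its window, on the plus strand at chr20:7150682-7150981 of GRCr8, held the core of a cyclic AMP response element (TGACG, read on the other strand as CGTCA), in capitals, at position -243.
Cdkn1a: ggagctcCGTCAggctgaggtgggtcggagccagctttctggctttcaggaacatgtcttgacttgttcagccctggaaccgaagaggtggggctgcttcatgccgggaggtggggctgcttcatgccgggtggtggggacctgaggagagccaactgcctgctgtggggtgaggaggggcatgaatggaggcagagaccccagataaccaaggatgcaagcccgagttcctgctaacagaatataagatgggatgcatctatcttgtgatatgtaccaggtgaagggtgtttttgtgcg

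Cdkn1a had 2.93, 3.94, 5.12 and 5.96 CPM in 1FS to 4FS, against 2.80, 2.58, 2.90 and 3.78 CPM in 6FC, 7FC, 8FC and 10FC. Library 1FS was again the lowest of its group and 10FC the highest of the female controls, and the female groups overlapped in these 2 libraries. Males had 5.49, 3.75, 5.26 and 4.56 CPM in 11MS to 14MS, against 1.41, 3.02, 2.12 and 1.42 CPM in 16MC, 17MC, 18MC and 20MC. These male groups did not overlap. Means were 4.49 ± 1.33 CPM in FS and 3.01 ± 0.528 CPM in FC, and 4.76 ± 0.784 CPM in MS and 1.99 ± 0.761 CPM in MC (SD, n = 4 each). The log2 fold change was 0.56 (SE 0.24) in females and 1.27 (SE 0.24) in males. The stressed groups had like means, and the mean was lower in MC than in FC. Library 17MC lay above 6FC, 7FC and 8FC, and this sex difference in controls did not pass the test given below.

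Per1 had the smallest stress difference of the 4 genes, with group means 1.17-fold higher under stress in females and 1.32-fold higher in males. ENSRNOG00000007387 lies on the plus strand of chromosome 10, from 55687050 to 55695994 (Rnor_6.0), with 22 exon blocks and 4049 exonic bases. Its window, on the plus strand at chr10:54304126-54304425 of GRCr8, held none of the 8 motifs searched and is shown for comparison with the others, without capitals.
Per1: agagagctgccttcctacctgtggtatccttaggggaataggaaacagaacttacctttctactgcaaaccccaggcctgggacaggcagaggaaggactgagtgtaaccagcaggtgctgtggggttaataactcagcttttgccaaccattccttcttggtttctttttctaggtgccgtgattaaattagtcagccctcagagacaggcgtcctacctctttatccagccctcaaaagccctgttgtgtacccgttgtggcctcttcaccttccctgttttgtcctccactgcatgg

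For Per1 the values were 12.4, 7.55, 11.6 and 8.12 CPM in 1FS to 4FS, against 8.68, 9.84, 9.25 and 6.15 CPM in 6FC, 7FC, 8FC and 10FC. The FS libraries fell in a high and a low pair, with 6FC, 7FC and 8FC between the pairs and 10FC below both. In males Per1 had 12.7, 10.9, 8.61 and 8.74 CPM in 11MS to 14MS, against 8.30, 8.39, 7.83 and 6.45 CPM in 16MC, 17MC, 18MC and 20MC. The male groups were separate by a gap from 8.61 CPM in the lowest MS library to 8.39 CPM in the highest MC library. Means were 9.91 ± 2.43 CPM in FS and 8.48 ± 1.62 CPM in FC, and 10.3 ± 1.96 CPM in MS and 7.74 ± 0.896 CPM in MC (SD, n = 4 each). The log2 fold change was 0.24 (SE 0.18) in females and 0.41 (SE 0.18) in males, with 18.8% and 8.38% of genes tested above it. All 3 featureCounts libraries were at the edge of their group, with 11MS highest and 10FC and 20MC lowest. Without these 3 libraries the log2 fold change was 0.10 (SE 0.16) in females and 0.21 (SE 0.17) in males.

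The promoter windows of the 4 genes, 6 in all, were searched on both strands for 8 motifs and set beside all 33469 windows that RefSeq gives for GRCr8. The full palindromic glucocorticoid response element was in 0 of the 6 windows and in 0.0149% of all windows. Its hexamer TGTTCT was in 0 of the 6, against 20.7% of all windows, and the E-box CACGTG and the full cyclic AMP response element TGACGTCA were in 0 of the 6, against 6.42% and 1.83%. The TATA box letters TATAAA were in 3 of the 6 windows, against 14.2% of all. These windows were of only 2 genes, Sgk1 and Nfkbia, and in Nfkbia the letters lie on the other strand, after the start. The NF-kB motif of Nfkbia occurs in 1.53% of all windows, the AP-1 motif in 7.33% and TGACG in 21.2%, and no match in the 6 windows overlapped another. These counts concern only these windows, and elements farther away were not searched.

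Side by side, the fitted stress differences of Sgk1, Nfkbia and Cdkn1a lay above that of Per1 in both sexes. On average over the sexes the log2 fold change was 1.02 (SE 0.12) for Sgk1, 1.00 (SE 0.11) for Nfkbia, 0.92 (SE 0.17) for Cdkn1a and 0.33 (SE 0.12) for Per1. The median of the 4 genes was 0.75 in females and 1.08 in males, beside medians of 0.01 and 0.00 over all 14241 genes tested. In edgeR's quasi-likelihood fit, with a Benjamini-Hochberg adjusted p under 0.05 as the call, 2 of the 4 genes, Sgk1 and Nfkbia, were called higher in females, beside 0.0632% of all genes tested. In males 3 of the 4, all but Per1, were called higher, beside 0.112% of all genes, and on average over the sexes the same 3, beside 0.232%. All FS libraries lay above all FC libraries for 1 of the 4 genes, beside 1.72% of all genes, and all MS above all MC for 4 of 4, beside 2.96%. Both held for Nfkbia alone, beside 0.14% of all genes. Since the set was listed with these results known, nothing is read from these counts.

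**Figure D2:**
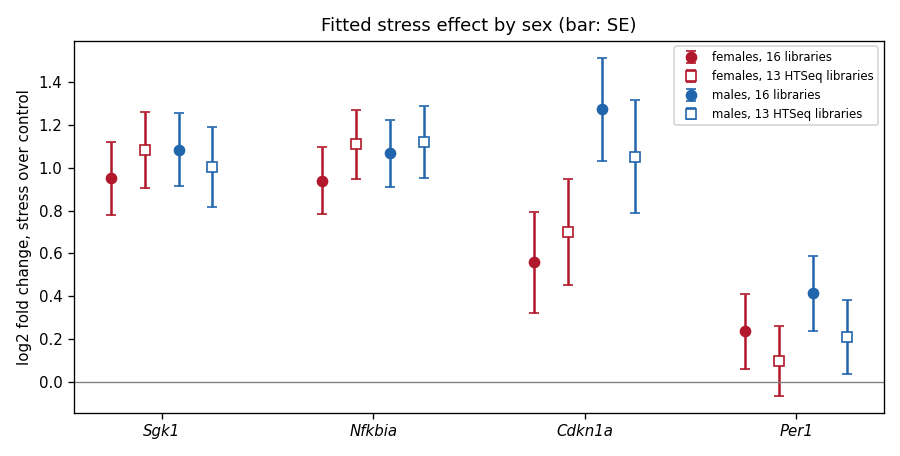
Fitted log2 fold change of stress over control (y axis) for each gene (x axis) in females and males, with SE bars, over all 16 libraries (filled circles) and over the 13 HTSeq libraries (open squares). Sgk1 and Nfkbia sit near 1 in both sexes under both sets, and Per1 sits nearest to 0. The Cdkn1a value is higher in males, but its difference between the sexes did not pass the adjusted test. Over the 13 HTSeq libraries that difference was -0.35 (SE 0.36).

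Of these calls, those of Sgk1 and Cdkn1a in males ended without the 3 featureCounts libraries, where their log2 fold changes were 1.00 (SE 0.19) and 1.05 (SE 0.26). Calls also ended when a single library was left out. This held for Sgk1 in females without 2FS, 3FS, 4FS, 6FC, 7FC or 8FC, for Nfkbia in females without 3FS, and for Cdkn1a in males without 11MS, 13MS, 14MS, 16MC, 18MC or 20MC. Over the 16 such fits the log2 fold change of Sgk1 in females ran from 0.84 to 1.12, that of Nfkbia from 0.83 to 1.11, and that of Cdkn1a in males from 1.13 to 1.53. The average over the sexes stayed called for all 3 genes in each of the 23 alternatives run. This too is a description and no test, since the set counts as chosen by these differences. The mitochondrial share of counts was 74.4% ± 3.49 in FS and 73.6% ± 6.83 in FC, and 78.2% ± 2.97 in MS and 74.9% ± 3.13 in MC (SD, n = 4 each). With mitochondrial genes left out before scaling the scale of the levels changed, and Sgk1 averaged 842 ± 227 nuclear CPM in FS and 436 ± 94.1 in FC, and 630.1 ± 89.9 in MS and 297 ± 18.0 in MC.

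Whether the stress difference itself differed between the sexes was tested as an interaction, a contrast the listing did not use, although it rests on the same libraries. By edgeR's quasi-likelihood test 0 of the 4 genes passed, beside 0% of all genes called, and 1 of the 4 had an unadjusted p under 0.05. That gene was Cdkn1a, whose stress effect, female minus male, was -0.72 on the log2 scale (SE 0.34, unadjusted p = 0.0432, adjusted p = 1.0). Without the featureCounts libraries the Cdkn1a difference was -0.35 (SE 0.36). For Sgk1, Nfkbia and Per1 the differences were -0.13, -0.13 and -0.18, with 95% intervals from -0.63 to 0.36, from -0.58 to 0.33 and from -0.69 to 0.33. These intervals hold equal effects and also differences of moderate size in either direction. DESeq2 and limma voom also called 0 of the 4. Over all 14241 genes the interaction was called 0 times by edgeR, where 571 genes had an unadjusted p under 0.05, 0 times by limma voom and 1 time by DESeq2.

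Females and males were also compared within each condition, in contrasts that share their libraries with the stress contrasts. In stressed rats Sgk1 averaged 205 CPM in FS and 153 CPM in MS, a log2 fold change of 0.42 (95% interval 0.07 to 0.77, edgeR adjusted p = 0.836). For Nfkbia, Cdkn1a and Per1 it was 0.09, -0.09 and -0.05, with intervals that include 0. In edgeR's test 0 of the 4 passed in stressed rats, where 0.0913% of genes were called. An unadjusted p under 0.05 was found for 1 of the 4, beside 809 of all 14241 genes tested. DESeq2 and limma voom also called 0 of the 4.

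In controls Sgk1 averaged 106 CPM in FC and 72.3 CPM in MC, a log2 fold change of 0.55 (95% interval 0.20 to 0.91, unadjusted p = 0.00381, edgeR adjusted p = 0.577). All 4 FC libraries, at 79.6 to 134 CPM, lay above all 4 MC libraries, at 67.2 to 78.0 CPM. The share of all genes separate in this way was not counted. Without the featureCounts libraries the log2 fold change of Sgk1 was 0.42 (SE 0.19). Cdkn1a averaged 3.01 CPM in FC and 1.99 CPM in MC, and its groups overlapped. Its log2 fold change was 0.63 (95% interval 0.13 to 1.13, unadjusted p = 0.0162, edgeR adjusted p = 0.727). Without the featureCounts libraries it was 0.34 (SE 0.27). Nfkbia and Per1 had log2 fold changes of 0.22 and 0.12, with intervals that include 0. By edgeR's test 0 of the 4 genes passed in controls, where 0.112% of genes were called. An unadjusted p under 0.05 was found for 2 of the 4, beside 882 of all 14241 genes tested. DESeq2 and limma voom also called 0 of the 4. Over the 23 alternatives the adjusted p of Sgk1 ran from 0.00597 to 1.0, and it passed only with no filter on low counts.

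**Figure D3:**
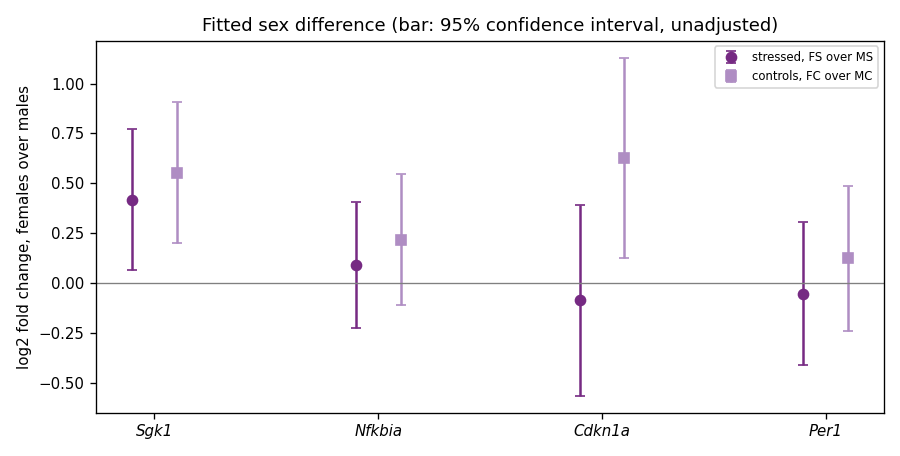
Fitted log2 fold change of females over males (y axis) for each gene (x axis) in stressed rats and in controls, with 95% confidence intervals not adjusted for the number of genes. Sgk1 lies above 0 in both conditions and Cdkn1a in controls, while none of the 4 genes passed the adjusted test.

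Between groups, the order of means was FS, MS, FC, MC for Sgk1 and Nfkbia, and MS, FS, FC, MC for Cdkn1a and Per1, from high to low. FS and MS overlapped in all 4 genes. FC and MC overlapped in Nfkbia, Cdkn1a and Per1 but not in Sgk1. The Sgk1 gap ran from 79.6 CPM in 8FC to 78.0 CPM in 18MC. Shares of all genes separate between FC and MC, or between MS and FC, were not counted. FS and FC overlapped in Sgk1, Cdkn1a and Per1. The order of MS and FC held beyond their ranges for Nfkbia, whose lowest MS library had 9.20 CPM and highest FC library 7.15 CPM, and not for Sgk1, where the lowest MS library had 127 CPM and the highest FC library 134 CPM.

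Per length, Sgk1 stood at 36.7 CPM per kb of exon on average over the 16 libraries, and 2.62% of the genes tested were higher. Nfkbia had 4.96, Per1 2.25 and Cdkn1a 1.83 CPM per kb, with 27.5%, 47.3% and 52.6% of genes tested above them. In FS the levels per kb were 56.1 ± 15.0 for Sgk1, 6.83 ± 0.909 for Nfkbia, 2.45 ± 0.601 for Per1 and 2.30 ± 0.681 for Cdkn1a (SD, n = 4), so Per1 and Cdkn1a did not differ beyond their spread. In MC, Per1 at 1.91 ± 0.221 CPM per kb exceeded Cdkn1a at 1.02 ± 0.390 CPM per kb.

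The 4 genes were then compared within groups, as the deviation of each library's log2 CPM from its group mean, which the differences between groups do not enter. For Sgk1 and Nfkbia the Pearson r was 0.62 (permutation p = 0.0428, adjusted p = 0.244) and the Spearman rho 0.56 (permutation p = 0.0767, adjusted p = 0.384). For Sgk1 and Cdkn1a r was 0.51 (permutation p = 0.0488, adjusted p = 0.244) and rho 0.59 (permutation p = 0.0219, adjusted p = 0.219). Tests were two-sided over 16 libraries, shuffled within groups, and adjusted over 10 relations, of which 0 passed. Without the 2 libraries farthest from the median of Sgk1, 1FS and 8FC, r was 0.49 with Nfkbia and 0.31 with Cdkn1a. In the 13 HTSeq libraries r was 0.57 and 0.45.

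Per1 had negative values with all 3 other genes. Its r was -0.29 with Sgk1 (rho -0.19, permutation p = 0.454 and 0.559), -0.35 with Nfkbia (rho -0.30, permutation p = 0.314 and 0.356) and -0.20 with Cdkn1a (rho -0.13, permutation p = 0.493 and 0.663), with adjusted p of 0.587 or above. Without the 2 farthest libraries these were 0.21, -0.06 and -0.13, so the sign turned for Sgk1, and the values for Nfkbia and Cdkn1a stayed negative. Library 1FS deviated by -0.66 for Sgk1, -0.56 for Cdkn1a and 0.36 for Per1 on the log2 scale, and 10FC by 0.36, 0.34 and -0.44. For Nfkbia with Cdkn1a r was 0.29 (rho 0.30, permutation p = 0.234 and 0.269, adjusted p = 0.587 for r), and 0.18 without 8FC and 10FC. The mitochondrial share gave r from -0.44 with Nfkbia to 0.34 with Per1 (rho -0.19 and 0.21, permutation p = 0.352 and 0.285 for r and 0.584 and 0.489 for rho, adjusted p = 0.587 for both r), and -0.03 and -0.05 without the 2 farthest libraries. With Sgk1 and Cdkn1a its r was 0.04 and -0.08 (rho 0.07 and 0.03, permutation p = 0.913 and 0.762 for r and 0.820 and 0.916 for rho, adjusted p = 0.913 and 0.847 for r), and -0.31 and -0.41 without the 2 farthest libraries.

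**Figure D4:**
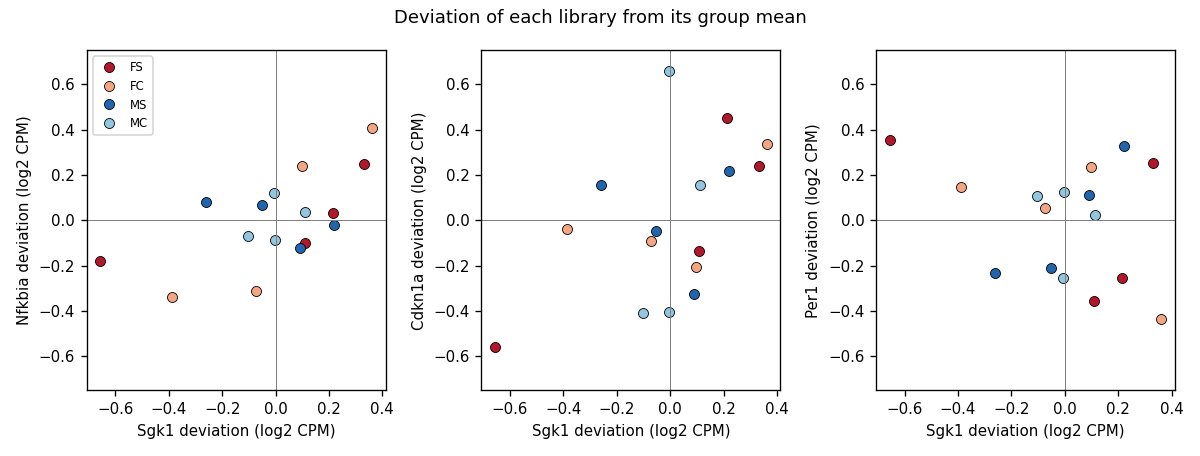
Deviation of each library's log2 CPM from its group mean for Sgk1 (x axis) against Nfkbia, Cdkn1a and Per1 (y axes), 1 point per library, coloured by group. Nfkbia and Cdkn1a tend upward with Sgk1, with r of 0.62 and 0.51, and Per1 slightly downward, with r of -0.29, none past the adjusted test.

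Genes with the most similar pattern were ranked by the Pearson correlation of log2 CPM over the 16 libraries, as a description that includes the group differences. Closest to Sgk1 were ENSRNOG00000009565 (chromosome 4, 30546664 to 30556814, r = 0.92) and ENSRNOG00000003977 (chromosome 10, 16970626 to 16973418, r = 0.91). ENSRNOG00000003977 was also the closest to Nfkbia, with r = 0.97, and the next was a gene on chromosome 1 at 85380088 to 85382569, with r = 0.93. Closest to Cdkn1a were a gene on chromosome 20 at 29509289 to 29511382 and one on chromosome 3 at 6211789 to 6295908, both with r = 0.87. Per1 was closest to a gene on chromosome 10 at 62674561 to 62690845, with r = 0.90, and to one on chromosome 3 at 9227823 to 9236736, with r = 0.85. In the 13 HTSeq libraries these were 0.77 and 0.66. With group means removed, r with the closest and the next gene was 0.71 and 0.68 for Sgk1 and 0.72 and 0.32 for Nfkbia. For Cdkn1a it was 0.64 and 0.70, and for Per1 0.87 and 0.82.

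Among the 4 genes themselves, Nfkbia ranked 4 among all genes tested in likeness to Sgk1 (r = 0.90) and Cdkn1a ranked 10 (r = 0.84), while Per1 ranked 1653 (r = 0.35). In likeness to Per1 the other 3 genes ranked 1895 to 2299. These ranks include the stress differences by which the set counts as chosen, so nothing is read from them. With group means removed, r with Sgk1 was 0.62 for Nfkbia and 0.51 for Cdkn1a, as given above. The within-group SD of log2 CPM was 0.30 for Sgk1, 0.22 for Nfkbia, 0.38 for Cdkn1a and 0.28 for Per1, and 46.2%, 64.7%, 32.7% and 48.9% of all genes tested had a larger one. Among genes whose mean log2 CPM lay within 0.5 of the gene's own, the shares were 5.57% of 287 for Sgk1, 48.2% of 2099 for Nfkbia, 15.2% of 2109 for Cdkn1a and 15.0% of 2032 for Per1.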

How the data were processed

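Total RNA of the nucleus basalis of Meynert was turned into libraries (NuGen Ovation RNA-Seq System v2) and sequenced as paired ends, per the labels' protocols. The submitters' processing notes name the build Rnor_6.0 and the tools limma, DESeq, HTSeq, bedtools and STAR (2.5.2a). The authors deposited unnormalised whole-number counts for each Ensembl gene. For 3 libraries these came from featureCounts 1.6.1 on Ensembl release 92, run per the file headers without options for pairs or strand, and the other 13 files have the layout of HTSeq, whose strand setting is not given in the sources used here. In those 13 files 44.8% to 64.7% of entries belonged to no gene, and they were left out of all sums. No 2 libraries had identical counts.

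From the counts, edgeR 4.0.16 (R 4.3.3) was run with TMM factors, filterByExpr (14241 genes kept) and a robust quasi-likelihood model with 1 mean per group over all 16 libraries. Adjusted p-values are Benjamini-Hochberg values over all genes tested, called under 0.05. SE is the log2 fold change divided by the square root of F. Log2 CPM used a prior count of 2. Correlations used 100000 within-group permutations. Alternatives were DESeq2 1.42.0, limma voom 3.58.1, other scalings and filters, the counting program as a covariate, and libraries left out. The fit was also run on simulated data, whose outcome is not given here. Nothing states that libraries came from separate animals, so p-values measure the spread between libraries, and precision covers counting and library spread only.

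The genes, lists and tests were chosen with earlier results of these data known. The rule for named genes was the 4 genes and, for each, the 2 genes most correlated with it over all libraries. The name table has no Ensembl identifiers, 0 matched, and the pathway and marker lists drawn up could not be applied. Promoter windows are from RefSeq (GRCr8), found by symbol for all 4 genes, and coordinates on different builds were not combined.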

Additional observations from a re-analysis of the deposited data

How the results depend on the processing

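No paired analysis was possible because the numbers in the titles are not shared between groups. Without the 3 featureCounts libraries the counts of called genes were 14 for stress in females, 5 in males, 29 on average and 10 for females against males in controls. DESeq2's own test called 27, 31 and 103 genes for stress in females, in males and on average, and 1 for the difference between sexes. Limma voom called 11 for stress in males. With no filter on low counts 105, 88 and 207 genes were called for stress in females, in males and on average, 36 for the difference between sexes, and 105 and 54 for females against males in stressed rats and in controls. The cause of these changes was not tested. With each library left out in turn the counts ran from 6 to 13 for stress in females, 7 to 21 in males, 28 to 56 on average, 0 to 0 for the difference between sexes, 10 to 13 for females against males in stressed rats and 12 to 19 in controls.

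All 4 genes kept a positive stress effect in each sex under the 23 alternatives run, which describes a set listed with these effects known. In contrasts that none of the 4 passed, signs turned near 0. Without the featureCounts libraries the difference between sexes was 0.0794 for Sgk1, and females against males in stressed rats 0.0703 for Per1. With single libraries left out these turned also at 0.0447 for Sgk1 (without 1FS) and 0.0402 for Nfkbia (without 10FC) in the difference between sexes, where the lowest values were -0.25 and -0.23. In stressed females against males Per1 was lowest at -0.17 and turned to 0.0528, 0.0309 and 0.0705 without 2FS, 4FS and 11MS, and Cdkn1a was lowest at -0.25 and turned to 0.0752 without 1FS. Sgk1 in controls passed only with no filter on low counts (log2 fold change 0.56, edgeR adjusted p = 0.00597). Deviations within groups turned without the featureCounts libraries to r of 0.0587 for Nfkbia with Per1, 0.33 for Cdkn1a with the mitochondrial share and -0.20 for Per1 with it, and with Spearman to 0.0324 for Cdkn1a with that share. With single libraries left out r ran from 0.52 to 0.69 for Sgk1 with Nfkbia, 0.26 to 0.63 for Sgk1 with Cdkn1a, -0.46 to 0.0311 for Sgk1 with Per1, 0.14 to 0.45 for Nfkbia with Cdkn1a, -0.52 to -0.05 for Nfkbia with Per1 and -0.35 to 0.00583 for Cdkn1a with Per1. With the mitochondrial share it ran from -0.37 to 0.52 for Sgk1, -0.60 to -0.0022 for Nfkbia, -0.32 to 0.20 for Cdkn1a and -0.053 to 0.58 for Per1. Cdkn1a, with as few as 47 counts in a library, is the gene whose values depth limits most.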
